A study of Arabidopsis thaliana with 12 samples.

Results

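The plastid genome of Arabidopsis thaliana encodes the core subunits of the photosynthetic complexes, and these transcripts are described here across 4 treatments of young seedlings. Members were the genes of that genome with a psa, psb, pet, atp or ndh symbol followed by 1 capital letter, plus rbcL, each read by a probe set paired with 1 gene. Of 44 listed genes, 43 qualified, among 22746 probe sets tested in all. The probe set of ndhB, a gene with 2 copies in the plastid genome, is paired with 2 gene identifiers and was left out. The 43 genes are 5 of photosystem I, 15 of photosystem II, 6 of the cytochrome b6f complex, 6 of the ATP synthase, 10 of the NDH complex, and rbcL.

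Whole wild-type seedlings of the Columbia ecotype, all labelled as 3 days old, were compared on 12 Affymetrix arrays, 3 biological replicates per treatment. The seedlings received 10 mM sucrose plus 0.2 µM sulfamethoxazole (SMX), 10 mM sucrose alone, 0.2 µM SMX alone, or neither (control). SMX is a sulfonamide that inhibits an enzyme of folate synthesis. All groups shared the same liquid medium in foil-wrapped 24-well plates, 3 days in the cold at 4 °C, 6 h of light and 3 days of growth at 21 °C. The labels do not say whether the plates were covered again after the light.

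Plastid genes are transcribed largely as multi-gene units by a bacterial-type polymerase, whose core subunits the plastid encodes, together with a phage-type polymerase encoded in the nucleus. The long primary transcripts are then cut, trimmed, spliced and edited, so that neighbouring genes of a unit can differ in the amount of mature RNA. Photosystem II splits water, the cytochrome b6f complex passes electrons on to photosystem I, the ATP synthase uses the proton gradient, the NDH complex feeds electrons back from ferredoxin, and Rubisco fixes carbon dioxide. Stable plastid mRNAs mostly lack the long poly(A) tails of nuclear mRNAs, and the one-cycle labelling assay used here primes cDNA with oligo(dT).

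Each array gives 1 expression value on the log2 scale for each probe set, between 2.12 and 15.7 over the table. The 43 members lay between 2.43 and 14.2, and all 43 averaged above 4. Values are compared for the same gene between arrays and not between genes, since probe sets differ in binding. Differences were tested with limma over all 22746 probe sets, with p adjusted by Benjamini and Hochberg's method, and genes with an adjusted p under 0.05 are termed called. In whole seedlings, fewer green cells or plastids and less RNA per cell cannot be told apart. A labelling score, the log2 difference between the 3′ and 5′ probe sets of the added Bacillus transcripts dap, lys and phe, separated the arrays by sucrose. It was −0.50 to −0.037 with sucrose plus SMX and −0.52 to 0.30 with sucrose, against 2.90 to 5.73 with SMX and 2.56 to 5.41 in the control. The actin probe sets of the array gave 0.96 to 1.43 and 0.95 to 1.97 with sucrose, against 5.25 to 7.99 with SMX and 3.49 to 7.36 in the control. The part of this labelling difference in the sucrose results cannot be told apart from the treatment.

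The members varied more between replicate arrays than most probe sets did. Their median SD within a treatment was 0.317 with sucrose plus SMX, 0.579 with sucrose, 0.490 with SMX and 1.01 in the control. The 12799 probe sets with a mean above 5 had median SDs of 0.206, 0.225, 0.226 and 0.317 in the same order. Many members moved together from array to array. In the control, replicate 1 was the lowest of the 3 arrays for 26 of the 43 members and replicate 2 the highest for 29. Among probe sets without tied values, replicate 1 was the lowest for 36.3% and replicate 2 the highest for 28.6%. With sucrose, replicate 1 was the highest for 31 members (39.1% of all untied probe sets), and with SMX, replicate 2 was the lowest for 29 (27.7%). After subtraction of the treatment means, a single component held 65.0% of the members' variance over the 12 arrays. The median correlation of these deviations was 0.37 for the 55 pairs of genes of one transcription unit and 0.34 for the other 848 pairs, a description over 12 arrays that share labelling and normalization.

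**Figure D1:**
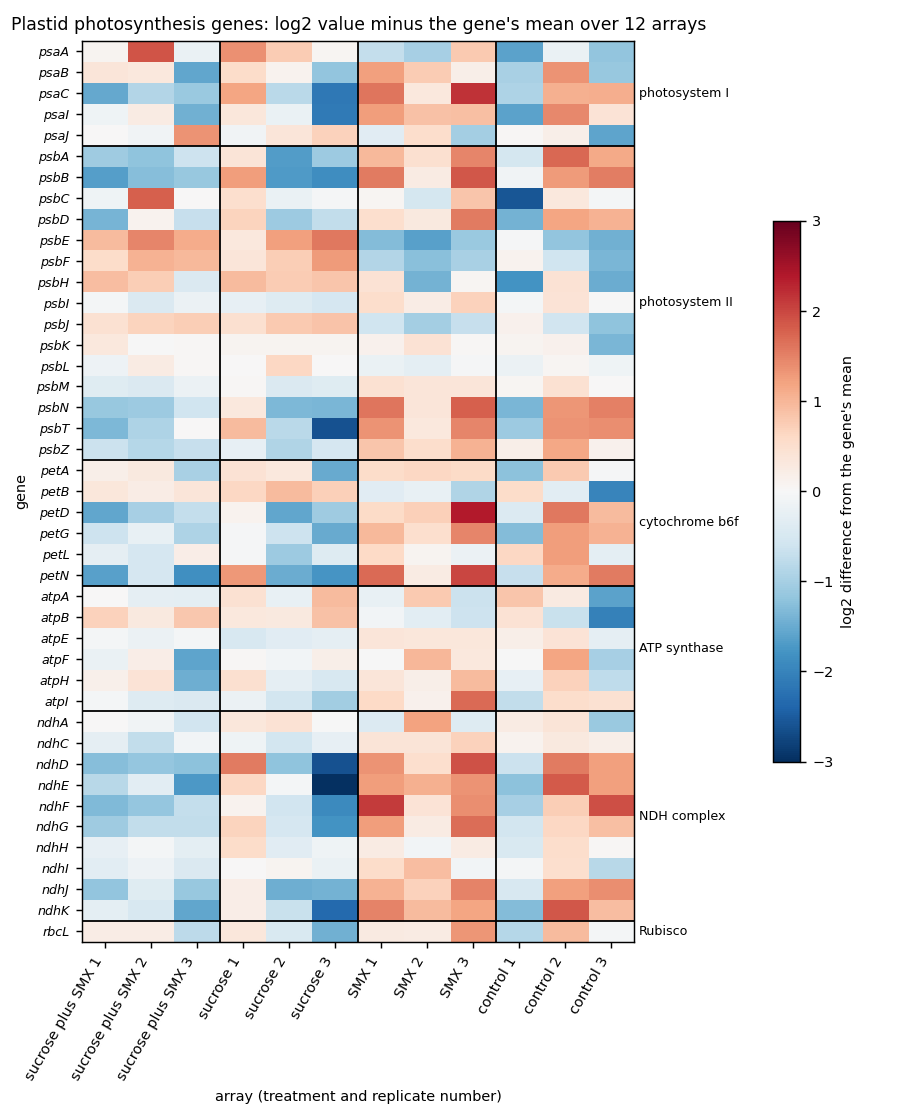
Each cell is the log2 value of 1 gene (rows, grouped by complex) on 1 array (columns, grouped by treatment) minus that gene's mean over the 12 arrays. The psbE, psbF and psbJ rows are high on all 6 sucrose arrays, while control replicate 1 and sucrose replicate 1 often differ from the other arrays of their treatment.

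Few members were called for sucrose alone against control. Of the 15 genes of photosystem II, the largest complex, 3 rose and 1 fell, and 1 of the 6 ATP synthase genes fell. The transcripts of psbE, psbF and psbJ, which share a transcription unit, rose, and those of psbZ and atpE fell. These 5 of 43 members are 11.6%, against 23.5% of all probe sets called in this contrast (11.9% higher, 11.6% lower), so the share of members is below the background. The groups did not overlap for 10 members (23.3%), 6 higher and 4 lower, against 34.9% of all probe sets (17.1% higher, 17.7% lower). The members' median difference was −0.49 (range −1.67 to 1.93) and that of all probe sets was 0. At an unadjusted p under 0.05 there were 15 of 43 members, against 8066 of all 22746 probe sets, a similar share. The standard errors of all 43 members had a median of 0.606, against 0.196 over all probe sets. The count was 11 (5 up, 6 down) without control replicate 1, 9 without sucrose replicate 1, 2 without control replicate 2, and 1 without sucrose replicate 2 or 3. It was 21 (5 up, 16 down) without control replicate 1 and sucrose replicate 1 together, a choice made after the data were seen. With only the 3 sucrose and 3 control arrays in the fit, 0 members were called. Here and below, counts from fits with arrays left out have no share of all probe sets beside them. They cannot be read as particular to the members.

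The psbE and psbF genes encode both subunits of cytochrome b559, a haem protein of the photosystem II core, and psbL and psbJ, next to them in the same unit, encode small subunits. With sucrose, psbE had 8.64, 9.55 and 9.89, against 8.28, 7.14 and 6.88 in the control. No array of one group reached into the other, and control replicate 1 was closest to the sucrose arrays. The difference was 1.93 (SE 0.416, adjusted p = 0.0119), a 3.81-fold rise. For psbF the arrays gave 10.99, 11.36 and 11.89 with sucrose, against 10.73, 10.02 and 9.25 in the control. The rise was 1.42 (SE 0.366, adjusted p = 0.0246), again with control replicate 1 as the highest control array. For psbJ, sucrose arrays had 10.71, 11.03 and 11.09 and control arrays 10.37, 9.68 and 9.03, a rise of 1.25 (SE 0.295, adjusted p = 0.0171). With each array centred on the median of the members, psbE was at 1.58 (adjusted p = 0.0677), psbF at 1.06 and psbJ at 0.90, none called. That limma fit gave each gene an SE of 0.565, above the SEs here. For sucrose plus SMX against SMX it called psbE and psbF (adjusted p = 9.7e-05 and 0.0055) but not psbJ. In the main fit for sucrose alone, only psbE of the 3 stayed called without each array in turn. There psbF ended at an adjusted p of up to 0.0867 and psbJ of up to 0.0609. The fourth gene of the unit, psbL, averaged 8.78 ± 0.35 with sucrose and 8.47 ± 0.12 in the control (SD, n = 3), a difference of 0.31 that did not pass (adjusted p = 0.256).

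The other called photosystem II gene fell. It was psbZ, a small subunit gene of the psbD unit, with 10.99, 10.33 and 10.74 under sucrose, against 11.43, 12.40 and 11.37 in the control. All sucrose arrays lay below all control arrays, and psbZ fell by 1.04 (SE 0.286, adjusted p = 0.0306), a call that ended without sucrose replicate 2 or 3 or control replicate 2 (adjusted p of up to 0.108). The reaction-centre gene psbA had 6.02, 3.96 and 4.54 with sucrose, against 5.11, 7.37 and 6.77 in the control. Sucrose replicate 1 lay inside the control range, and the difference of −1.57 had an SE of 0.663 (adjusted p = 0.126). Its partner psbD gave 5.88, 4.12 and 4.47 with sucrose, against 3.81, 6.40 and 6.25 in the control. Here control replicate 1 was the lowest of the 6 arrays, and the difference was −0.66 (SE 0.791, adjusted p = 0.635). The core antenna genes psbB and psbC were at −1.67 (SE 0.849) and 0.85 (SE 0.808), neither called. The small subunit genes psbH (1.80), psbT (−1.37), psbI (−0.49), psbM (−0.43) and psbK (0.47), and psbN (−1.28), an assembly gene in tobacco, were not called either. Of these, the groups did not overlap for psbH and psbI.

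In photosystem I no member was called for sucrose alone, and the differences had both signs. The core gene psaA had 7.65, 7.04 and 6.33 with sucrose, against 4.66, 6.08 and 5.09 in the control. All 3 sucrose arrays were above all 3 control arrays, with a difference of 1.73 (SE 0.702, adjusted p = 0.113). The gene next to it in the same unit, psaB, had 11.60, 11.14 and 9.85 with sucrose and 10.07, 12.38 and 9.91 in the control, a difference of 0.077 (SE 0.81). These arrays overlapped. The iron-sulphur subunit gene psaC was at −0.99 and the small subunit genes psaI and psaJ at −0.74 and 0.77.

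The cytochrome b6f genes were lower with sucrose in 5 of 6 cases, with a median of −1.04, and none was called. The exception was petB, for cytochrome b6, with 11.85, 12.16 and 11.95 under sucrose, against 11.76, 10.90 and 9.24 in the control. All 3 sucrose arrays were the higher ones, control replicate 1 lying just under them, and the difference was 1.35 (SE 0.53, adjusted p = 0.104). Its neighbour petD, for subunit IV, was at −1.54 (SE 0.675), petG at −1.06, petL at −1.02 and petN at −1.30, the last 3 being small subunits. For petA, cytochrome f, sucrose arrays had 11.17, 11.07 and 9.24 and control arrays 9.52, 11.53 and 10.71, a difference of −0.093.

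Of the ATP synthase genes, atpE, for the epsilon subunit of the catalytic part, fell with sucrose. Its arrays had 13.35, 13.50 and 13.56, against 14.02, 14.23 and 13.56 in the control. Control replicate 3 lay just above the highest sucrose array. The fall was by 0.47 (SE 0.143, adjusted p = 0.0463), and it was no longer called after leaving out any array but control replicate 3 (adjusted p of up to 0.122). The beta subunit gene atpB, whose reading frame overlaps the start of atpE, had 13.58, 13.55 and 14.16 with sucrose and 13.71, 12.60 and 11.24 in the control. Its difference of 1.25 (SE 0.528) did not pass (adjusted p = 0.128), the control arrays being spread widely. The alpha subunit gene atpA (0.56) and the membrane subunit genes atpF (−0.018), atpH (0.0082) and atpI (−0.67) were not called.

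The NDH genes had a median of −1.11 with sucrose alone, 7 of 10 below 0 and none called. The smallest p was that of ndhC, with 11.80, 11.40 and 11.68 under sucrose, against 12.04, 12.22 and 12.11 in the control. Each sucrose array was below each control array, and the difference was −0.50 (SE 0.178, adjusted p = 0.0762). For ndhF, sucrose arrays had 5.47, 4.78 and 3.47 and control arrays 4.37, 6.12 and 7.29, a difference of −1.35 (SE 0.79, adjusted p = 0.273). Control replicate 1 was within the sucrose range. Differences of −1.60, −1.42, −1.49, −1.47 and −0.87 were seen for ndhJ, ndhK, ndhE, ndhD and ndhG, while ndhA (0.41), ndhI (0.090) and ndhH (0.0014) lay near 0 or above it. The carbon-fixing enzyme gene rbcL had 7.68, 6.89 and 5.91 with sucrose and 6.50, 8.30 and 7.29 in the control, a difference of −0.54 (SE 0.599, adjusted p = 0.601).

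**Figure D2:**
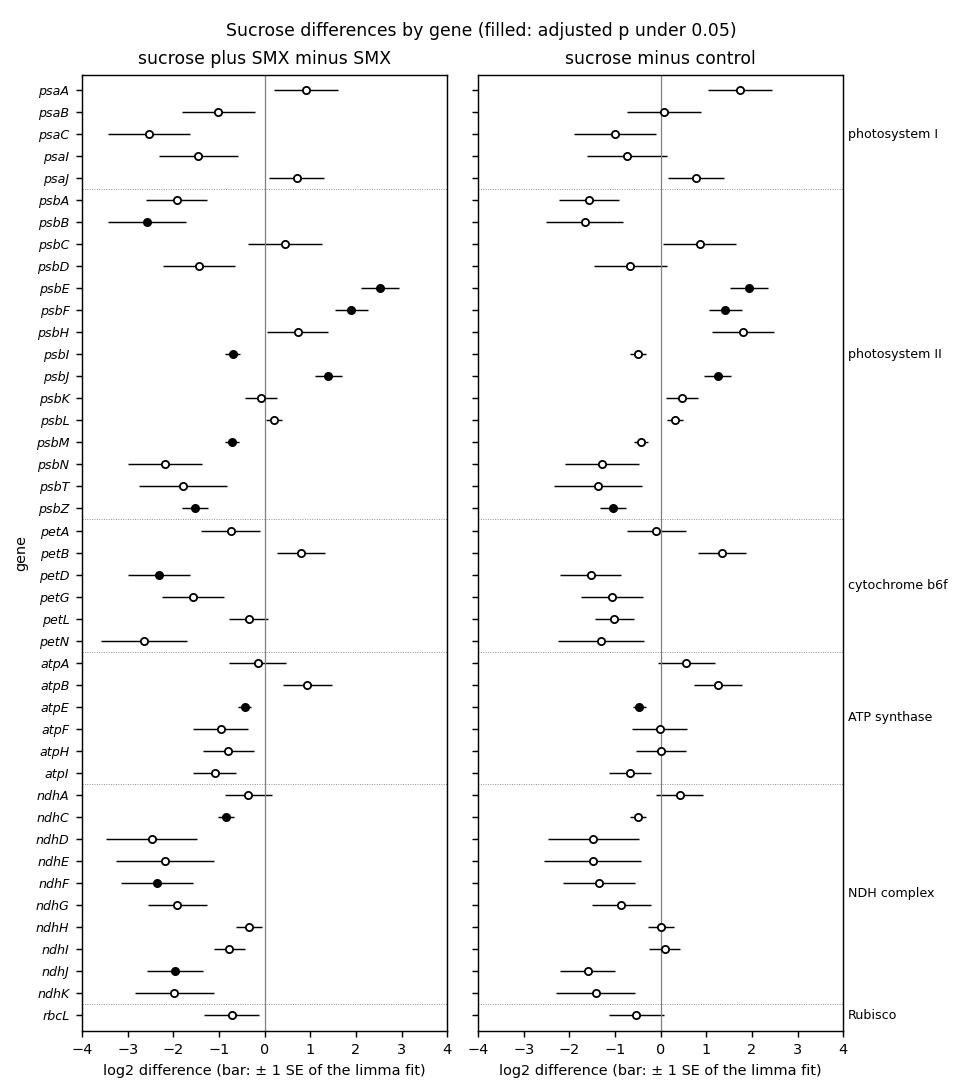
Log2 differences of each gene for sucrose plus SMX minus SMX (left) and for sucrose minus control (right), with bars of 1 standard error of the limma fit (3 arrays per group) and filled points for called genes. The same 3 genes, psbE, psbF and psbJ, are called upward in both panels, and more genes are called downward in the left panel (9) than in the right (2).

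The sucrose difference was also measured among SMX-treated seedlings, on 6 other arrays. Here 12 members were called, 3 up and 9 down, which is 27.9% of the members against 32.5% of all probe sets (16.2% higher and 16.2% lower). The same genes rose as with sucrose alone: psbE by 2.52 (SE 0.416), psbF by 1.90 (SE 0.366) and psbJ by 1.39 (SE 0.295), at adjusted p values of 0.00219, 0.00453 and 0.00717. With sucrose plus SMX, psbE had 9.27, 9.78 and 9.42, against 7.01, 6.69 and 7.19 with SMX. The groups lay more than 2 units apart. The 9 that fell were psbB (−2.57), psbI (−0.70), psbM (−0.72), psbZ (−1.53), petD (−2.32), atpE (−0.44), ndhC (−0.85), ndhF (−2.36) and ndhJ (−1.97), with adjusted p from 0.00399 to 0.0499. The groups did not overlap for 30 of 43 members (69.8%), 5 higher and 25 lower, against 45.3% of all probe sets (22.3% higher, 23% lower). Over 8 of the 12 arrays left out in turn the calls of psbB and ndhF ended, over 10 that of atpE, over 5 that of ndhJ (adjusted p of up to 0.106) and over 4 that of petD (up to 0.0917). The count was 7 without sucrose plus SMX replicate 1 or 3 or SMX replicate 3, and 16 without control replicate 1.

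The antenna gene psbB had 4.99, 5.36 and 5.51 with sucrose plus SMX, against 8.19, 6.89 and 8.50 with SMX, so that the arrays were well apart. In petD, of the same transcription unit, they were 2.60, 3.18 and 3.44 against 4.75, 4.89 and 6.54, again without overlap. For ndhJ, a subunit of the NDH complex, the values were 5.71, 6.54 and 5.76 against 7.94, 7.60 and 8.38. All 10 NDH genes were below 0 in this comparison (median −1.94, 3 called), and 5 of 6 cytochrome b6f genes (median −1.16, 1 called). Members that did not pass include petN (−2.65, SE 0.94, adjusted p = 0.0616), psaC (−2.54), ndhD (−2.48), psbN (−2.19) and psbA (−1.93), each with no overlap between the groups. The photosystem II core gene psbD (−1.45) and rbcL (−0.73) were not called, with rbcL at 7.58, 7.58 and 6.56 against 7.63, 7.61 and 8.66. The sign was the same with and without SMX for 36 of 43 members (83.7%) and for 85.6% of the 18568 probe sets with differences other than 0, in comparisons that share no array. The interaction, the SMX difference with sucrose minus that without, had 0 members called by limma (smallest adjusted p = 0.902), against 0.0703% of all probe sets. At an unadjusted p under 0.05 there were 0 members, against 1391 of 22746 probe sets. The members' interaction had a median of −0.55, with 38 of 43 below 0.

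Averaged over both SMX levels in the same fit, a contrast added after the data were seen, the sucrose difference was called for 18 members, 5 up and 13 down (41.9%, against 40.7% of all probe sets, 20.1% higher and 20.6% lower). The 5 were psbE (2.23, SE 0.294), psbF (1.66), psbJ (1.32), petB (1.07) and atpB (1.09). The 13 were psbA (−1.75), psbB (−2.12), psbI (−0.60), psbM (−0.57), psbN (−1.74), psbZ (−1.29), petD (−1.93), petN (−1.97), atpE (−0.45), ndhC (−0.67), ndhF (−1.86), ndhG (−1.39) and ndhJ (−1.78). The 6 arrays with sucrose did not overlap the 6 without it for psbE, psbF and psbJ, all higher, and for psbI, psbZ and ndhC, all lower. These 6 are 14.0% of the members, against 25.2% of all probe sets (12.8% higher, 12.4% lower). An F test of any difference among the 4 treatments called 8 members (18.6%), psbE, psbF, psbI, psbJ, psbM, psbZ, atpE and ndhC, against 31% of all probe sets. For ndhC the sucrose arrays reached from 11.19 over a median of 11.68 to 11.85, and the others from 12.04 over 12.27 to 12.63. For psbZ the 6 sucrose arrays ran from 10.33 (median 10.58) to 10.99 and the 6 others from 11.37 (median 11.92) to 12.40. By complex, the median difference was −0.47 for photosystem I, −0.57 for photosystem II, −1.0 for cytochrome b6f, −0.42 for the ATP synthase and −1.55 for the NDH complex. The complexes were not tested against each other.

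Genes of one transcription unit did not always have the same sign. In the unit of psbB, psbT, psbH, petB and petD, which is cut into smaller RNAs after transcription, the sucrose-alone differences were −1.67, −1.37, 1.80, 1.35 and −1.54. The within-array difference between psbH and psbB, which cancels any shift common to an array, averaged 3.91 on the 6 arrays with sucrose (1.92 to 4.90), against 0.52 on the 6 without (−0.81 to 1.37). The array ranges do not meet. A labelling difference that acts unequally on the probe sets of a pair would not cancel, and its part was not tested. The difference between petB and petD ran from 7.57 to 9.55 with sucrose and from 3.78 to 8.0 without, where only control replicate 1 reached into the sucrose range. Between atpB and atpE it was −0.11 to 0.60 with sucrose, against −2.33 to −0.31 without. In the psbD unit, psbC minus psbZ was −3.15 to −0.96 with sucrose, against −6.35 to −3.79 without. The pairs were chosen after their values were seen and have no test. The ndhC, ndhK and ndhJ unit had differences of −0.50, −1.42 and −1.60 for sucrose alone, none of them called. All 7 genes of the psaC, ndhE, ndhG, ndhI, ndhA, ndhH and ndhD unit were below 0 when SMX was present (−0.34 to −2.54), and none was called.

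**Figure D3:**
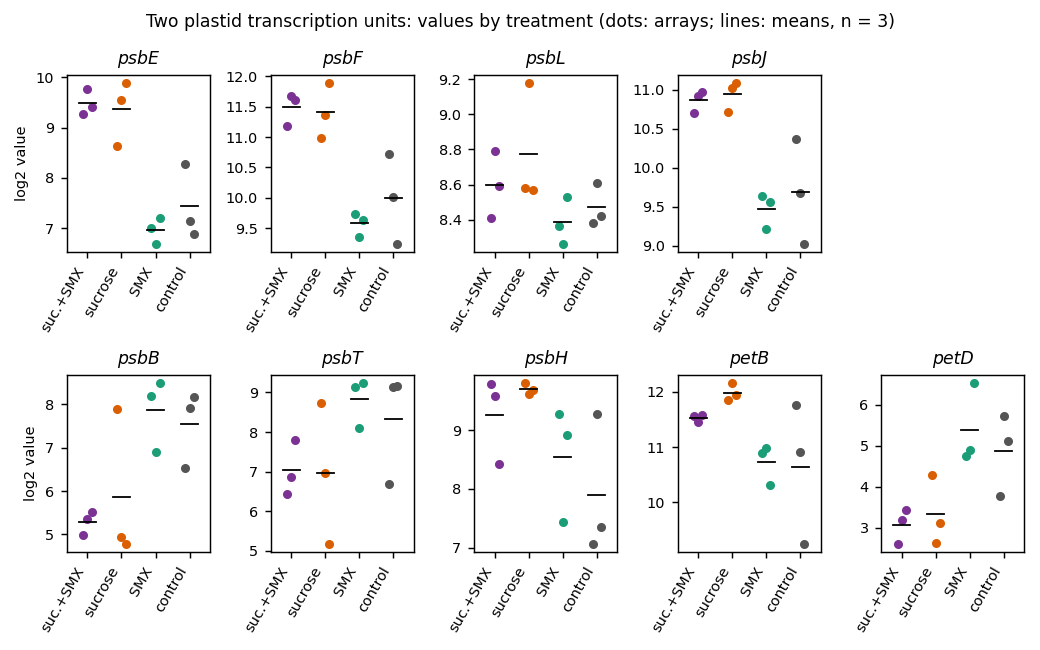
Log2 values of the 4 genes of the psbE unit (top) and the 5 genes of the psbB unit (bottom) by treatment, with a dot for each array and a line at the mean of 3; each panel has its own axis, which does not start at 0. In the lower row psbB, psbT and petD have lower means with sucrose, while psbH and petB have higher means.

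Against the control, sucrose plus SMX gave 6 called members, or 14.0% against 27.2% of all probe sets (13.5% higher, 13.7% lower). These control arrays are those used for sucrose alone. The groups did not overlap for 12 members, 3 higher and 9 lower (27.9%), against 38.6% of all probe sets (18.7% higher, 19.9% lower). The genes psbE (2.06, SE 0.416, adjusted p = 0.00721), psbF (1.49) and psbJ (1.17) rose, and psbM (−0.50), psbZ (−1.21) and ndhC (−0.55) fell. Only psbE and psbZ stayed called without each array in turn. The small subunit gene psbM had 12.25, 12.17 and 12.42 with sucrose plus SMX, against 12.67, 13.05 and 12.63 in the control. Its 2 groups did not overlap. The count was 13 without control replicate 1 and 2 without sucrose plus SMX replicate 2.

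SMX alone changed no member past the test. Limma called 0 of 43 (smallest adjusted p = 0.763), against 0.0835% of all probe sets. At an unadjusted p under 0.05 there were 0 members, against 1510 of 22746 probe sets. The differences were above 0 for 38 of 43 members with a median of 0.51, against 0 over all probe sets. That median was 0.16 without control replicate 1 and 0.89 without control replicate 2. In psbI, the photosystem II member with the smallest p, SMX arrays had 11.45, 11.15 and 11.60, against 10.88, 11.34 and 10.90 in the control, a difference of 0.36 (SE 0.167). The groups overlapped through control replicate 2. For psaB the values were 12.26, 11.79 and 11.22 with SMX and 10.07, 12.38 and 9.91 in the control (0.97, SE 0.81), and for petA 11.29, 11.36 and 11.32 against 9.52, 11.53 and 10.71 (0.74, SE 0.648). In both genes control replicate 2 exceeded each SMX array. In the remaining complexes atpE (0.24), ndhI (0.60) and rbcL (0.60) had the smallest p. For atpE the arrays had 14.19, 14.18 and 14.16 with SMX and 14.02, 14.23 and 13.56 in the control, and for ndhI 12.14, 12.51 and 11.51 against 11.53, 12.08 and 10.74. The groups did not overlap for 1 member, ndhC (0.30), or 2.33%, against 7.46% of all probe sets (4.1% higher). The psbE unit was the one whose 4 genes were all below 0 (−0.47, −0.42, −0.084 and −0.22 for psbE, psbF, psbL and psbJ).

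SMX in the presence of sucrose also left 0 of 43 members called (limma, smallest adjusted p = 1; 0 at an unadjusted p under 0.05; 0.189% of all probe sets called). Over all probe sets, 1256 of 22746 had an unadjusted p under 0.05. The members' median difference was −0.12, with 16 members above 0 and 27 below. The largest sizes were those of petN (−0.68, SE 0.94) and psaC (−0.59). Both lay within 1 standard error of 0. The groups did not overlap for petB, which was lower, and atpE, which was higher (4.65% of members, against 9.7% of all probe sets, 4.64% higher and 5.06% lower). Averaged over both sucrose levels, a contrast added after the data were seen, SMX left 0 members called, against 0.0923% of all probe sets. At an unadjusted p under 0.05 there was 1 member in that average, against 1237 of 22746 probe sets. The direction was the same as for SMX alone in 15 of 43 members (34.9%, against 48.9% of 18135 probe sets), on arrays not shared.

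The labelling score was also set beside psbJ, psbF, psbE and psbZ within treatments, genes chosen after their values were seen. In the control, psbJ had 10.37, 9.68 and 9.03 on the arrays whose spike scores were 2.56, 4.36 and 5.41. With SMX it had 9.64, 9.22 and 9.56 at scores of 2.90, 5.73 and 4.77. The highest psbJ value in each of these groups fell on the array with the lowest score. The same was seen for psbF, with 10.73, 10.02 and 9.25 in the control and 9.74, 9.37 and 9.65 with SMX. For psbE it was seen in the control (8.28, 7.14 and 6.88) but not with SMX (7.01, 6.69 and 7.19). For psbZ it was seen in neither group: at the same scores, control arrays had 11.43, 12.40 and 11.37 and SMX arrays 12.07, 11.76 and 12.30. With sucrose the scores spanned only −0.52 to 0.30, and psbJ 10.71 to 11.09. With the spike score as a covariate in the limma fit, psbJ was at −0.075 (SE 0.331), psbF at −0.079 (SE 0.501), psbE at 0.38 (SE 0.638) and psbZ at −0.97 (SE 0.624) for sucrose alone. No member was called in any contrast with either score as a covariate. Because the scores of arrays with and without sucrose do not overlap, these fits extend slopes from within the treatments.

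**Figure D4:**
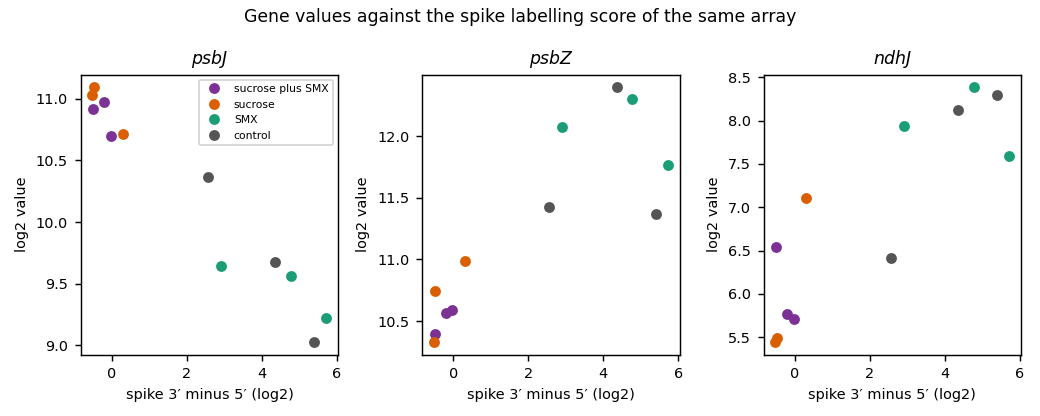
Log2 values of psbJ, psbZ and ndhJ (vertical axes, not starting at 0) against the spike labelling score of the same array (horizontal axis, log2 difference between 3′ and 5′ probe sets), with 1 dot per array coloured by treatment. The 6 arrays with sucrose lie at scores up to 0.30 and the 6 without it from 2.56, which is the score of control replicate 1.

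Other genes of the plastid and mitochondrial genomes were measured on the same arrays. Of 26 further plastid-encoded genes, mostly of ribosomes and the plastid polymerase, 2 rose and 0 fell with sucrose alone (median 0.011), against 11.9% higher and 11.6% lower among all probe sets. These were the ribosomal protein genes rpl36 (1.93, SE 0.46) and rpl14 (1.22, SE 0.301). In the presence of SMX, 2 rose and 4 fell (median −0.43), against 16.2% of all probe sets in each direction. Among them were rpl36 (2.50) and rpoA (−0.96), a polymerase subunit. Of 22 probe sets of mitochondrial genome genes, several of which read the same gene, 1 rose with sucrose alone, that of ccb382, a gene of cytochrome c maturation (3.60, SE 0.757), and 0 fell. Of the 22, 14 were below 4 on every array, near the lowest value of the table, so that a fall could hardly be measured.

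Some nuclear genes for the same complexes fell with sucrose. Only 11 of 55 listed genes could be matched to a probe set. With sucrose alone 5 of the 11 fell and 0 rose (median −0.56), and with SMX present 7 fell and 0 rose (median −1.36), against 11.6% and 16.2% of all probe sets called lower. The smallest p for sucrose alone were those of PSBW of photosystem II (−1.47, SE 0.244), NdhN of the NDH complex (−1.74, SE 0.32) and PSAN of photosystem I (−1.89, SE 0.368), at adjusted p values of 0.0041, 0.00622 and 0.00777. For PSAN, sucrose arrays had 10.55, 9.69 and 9.54, against 11.50, 12.14 and 11.82 in the control, with no overlap. The Rubisco activase gene RCA, the measured marker of green tissue, was at 0.22 and PORB, a chlorophyll synthesis enzyme abundant in etiolated seedlings, at −0.27, neither called. Of the 4 root markers listed, 2 were measured: EXPA7 rose by 2.75 (SE 0.307), while PYK10 was at −0.054. With SMX present, EXPA7 rose by 4.22 while PYK10 was called lower, at −0.49 (limma adjusted p = 0.0032). There RCA was at −0.41 and PORB at −0.50, neither called. The 5 seed markers, 21 plastid transcription factors and 13 RNA processing factors listed had 0 genes matched and were not followed.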

How the data were processed

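RNA of 12 seedling samples, 3 per treatment, was measured on Affymetrix arrays. The authors deposited a log2 value for every probe set on each array, and per the submitters' processing notes GCRMA and limma were used, with no version or order of steps given. The log base is not written in the table and was read as log2 from the range. The 64 control probe sets were removed. Probe sets were named from the platform annotation (13513 with 1 gene, 503 with several), updated through gene identifiers to names in TAIR10.1.

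One fit in limma 3.58.1 under R 4.3.3 (lmFit, then eBayes) took 12 arrays in 4 treatment groups and gave 6 contrasts, plus 2 averaged contrasts added after the data were seen. Two-sided p-values were Benjamini-Hochberg adjusted over all 22746 probe sets within a contrast. The fit was tested on simulated data. No array pair was identical. Members and lists were chosen with earlier results of these data known. By the naming rule, array values are given for psaA, psbA, psbD, petB, atpB, ndhF and rbcL and, within each complex, for the gene with the smallest p for sucrose alone and for SMX alone. Those of other genes were picked after their values were seen. Genes of other lists are the called ones with the smallest p, except that the measured tissue markers are named whether called or not. The number of arrays limits the precision. Alternatives covered normalization, filters, covariates, replicate block and single arrays left out. Deviations from the treatment means correlated at a median of 0.050 for arrays with the same replicate number (lowest −0.36) and −0.034 for others, so the numbers were not taken as pairs.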

Additional observations from a re-analysis of the deposited data

How the results depend on the processing

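Counts of called members are by limma with Benjamini-Hochberg adjustment. Except for the member-centred fit, no share of all probe sets is given beside the altered counts. All altered counts describe the members only. For sucrose alone against control (5), the count was 8 after median centring or quantile normalization, 12 and 10 at a mean above 4 or 6, 2 with the replicate block, 10 (all down) with each array centred on the member median, 0 with the spike or actin score as covariate, 0 with only the arrays compared, and 21 with the first control and first sucrose arrays both left out (chosen after seeing the data). For sucrose plus SMX against control (6) it was 12 and 11 at a mean above 4 or 6, 10 centred on the member median, 0 with either score, 1 with only the arrays compared and 18 without the 2 arrays. For sucrose plus SMX against SMX (12) it was 20 at a mean above 4, 15 (2 up, 13 down, without psbJ at an adjusted p of 0.0624) centred on the member median, 0 with either score, 23 with only the arrays compared and 19 without the 2 arrays. For sucrose averaged over SMX (18) it was 28 at a mean above 4, 22 (5 up, 17 down) centred on the member median, 0 with either score and 28 without the 2 arrays. Centred on the member median, the fit called 6.85% of all probe sets for sucrose alone and 8.03% for sucrose plus SMX against control. It called 11.2% for sucrose plus SMX against SMX and 18.9% for the sucrose average. In this member-centred fit every probe set had the same SE, 0.565 between 2 groups and 0.3996 for the average. In the main fit the members' SEs between 2 groups had a median of 0.606 (0.143 to 1.07), against 0.196 over all probe sets. The centring value also came from the members themselves, so their centred counts cannot be read against these shares. Without single arrays the main counts ran from 1 to 11, 2 to 13, 7 to 16 and 12 to 27, in the same order. They stayed at 0 for both SMX contrasts, their average and the interaction. The replicate block, which rests on numbers that do not pair the arrays, ended the sucrose-alone calls of psbF, psbZ and atpE.

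With the actin score the members' median was 0.36 for sucrose alone, −0.036 for sucrose plus SMX against SMX and 0.084 for the average. Without single arrays the medians ran from −0.58 to −0.20 (sucrose alone), −0.56 to −0.054 (sucrose plus SMX against control), −0.98 to −0.71 (sucrose plus SMX against SMX), −0.68 to −0.50 (sucrose average), 0.16 to 0.89 (SMX alone), −0.35 to 0.21 (SMX with sucrose), 0.0092 to 0.33 (SMX average) and −0.95 to −0.23 (interaction). With the spike score the estimates lay slightly below 0 for psbF (−0.079 for sucrose alone, −0.016 for sucrose plus SMX against control). They did so too for psbJ (−0.075, −0.16, and −0.053 for sucrose plus SMX against SMX). The sucrose-alone values are smaller in size than their standard errors given above, so they show no reversal. These fits extend slopes from within the treatments. The causes were not tested. The number of arrays limits each count.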
